A study of Mus musculus with 12 samples.

Results

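The respiratory chain of mouse embryonic fibroblasts was described through 101 protein-coding genes. They comprised the 88 nuclear genes whose mouse symbols mark them as subunits of complexes I to V (Nduf names, Sdha to Sdhd, Uqcr names, Cyc1, the Cox4 to Cox8 subunits and the Atp5 subunits) and the 13 protein-coding genes of mitochondrial DNA. The genes were taken by name and not by a measured value. Of the 101, 100 had an entry among the 26305 gene identifiers of the count table, and Ndufb1 was not analysed here. At least 1 count was recorded for 98 of them, and 94 (81 nuclear and 13 mitochondrial) passed the filter on low counts and were tested together with all other genes that passed, 13499 in total.

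RNA was sequenced from fibroblasts of wild type C57BL/6 male mouse embryos taken at embryonic day 13.5 and grown in DMEM with serum under 3% oxygen. The 4 groups were WM-2474 at 10 µM for 240 h, DMSO for 240 h, WM-2474 at 10 µM for 96 h and DMSO for 96 h, each with 3 biological replicates by the labels. The labels call WM-2474 an inactive control compound and DMSO its vehicle, so the treatment comparisons ask whether the compound changed expression on its own. The labels do not say whether replicates came from separate embryos, and the p-values measure the spread between these cultures.

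The chain passes electrons from NADH through complex I (NADH dehydrogenase) and from succinate through complex II to ubiquinone, then through complex III and cytochrome c to complex IV (cytochrome c oxidase), which reduces oxygen. Complexes I, III and IV pump protons, and complex V (ATP synthase) uses the gradient to make ATP. Complexes I, III, IV and V combine subunits from both genomes, whereas complex II is encoded by nuclear genes alone. Mitochondrial mRNAs are cut from long polycistronic transcripts, while each nuclear subunit has its own promoter.

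Library totals were 7313007 to 26019167 counts. The 12 fibroblast markers all had counts, with a summed level of 35361 to 54389 CPM (counts scaled to the library total, and for the subunits also by TMM factors). Replicates 1 and 2 of the DMSO 240 h group stood apart from the other libraries. They had 5.06 and 4.29 CPM of Xist, the RNA of the inactive X chromosome, although the labels give all embryos as male, and a summed level of 58.8 and 54.4 CPM over 25 B lineage genes. The other 10 libraries had at most 0.929 CPM of Xist and 28.2 to 37.9 CPM of the B lineage genes. That sum mixes genes that differed with genes that did not. Ebf1 had 27.3 to 41.5 TPM over all libraries. Igll1 had 2.92 and 1.97 TPM in the 2 replicates and 0 elsewhere, and Ighm had 9.99 and 13.1 TPM against at most 2.90 TPM. Some results that rest on DMSO 240 h replicates 1 and 2 are given with and without them, and the part of these features in any result was not tested. Medians by complex, summed levels, counts of groups without overlap, the average over both times and the difference between times are not given without them. As these are bulk libraries, fewer cells of a type and less RNA per cell cannot be told apart. The markers of striated muscle, a tissue with its own complex IV isoforms, summed to 222 to 299.7 CPM in the 240 h libraries and to 127 to 152 CPM in the 96 h libraries, most of it from Acta1, and Ckm and Myh4 had no count in any library. Myeloid markers summed to 6.52 to 13.6 CPM, adipocyte markers to 40.3 to 78.9 CPM and red cell markers to at most 1.30 CPM.

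Some mitochondrial genes overlap on the genome, which bears on how their reads can be assigned, and the 2 smallest genes concerned are shown for that reason. ATP8, a membrane subunit of complex V, lies at position 7766 to 7969 of the mitochondrial chromosome and shares its last 43 bases with the start of ATP6. ND4L, a membrane subunit of the proton-pumping arm of complex I, lies at 9877 to 10173 and shares its last 7 bases with ND4. Capitals mark the shared bases in the sequences, which are from the GENCODE M21 transcripts (GRCm38).
ATP8: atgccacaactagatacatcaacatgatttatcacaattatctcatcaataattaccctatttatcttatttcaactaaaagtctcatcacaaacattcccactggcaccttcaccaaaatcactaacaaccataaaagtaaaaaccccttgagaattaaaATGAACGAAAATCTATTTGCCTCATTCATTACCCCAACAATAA
ND4L: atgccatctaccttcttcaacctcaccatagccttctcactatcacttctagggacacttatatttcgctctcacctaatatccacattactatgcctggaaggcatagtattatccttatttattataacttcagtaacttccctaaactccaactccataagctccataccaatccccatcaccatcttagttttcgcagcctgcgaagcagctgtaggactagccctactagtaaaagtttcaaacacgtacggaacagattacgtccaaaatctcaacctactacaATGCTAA
Several mitochondrial genes also have near-identical nuclear copies. Of the 31-base words of ND4L, 99.62% also occur in the nuclear pseudogene Gm10222, and the shares found elsewhere were 100% for COX2, 99.87% for COX3, 99.85% for ATP6 and 98.73% for ND3. How reads with several matches were counted is unknown here, and the levels of these genes are uncertain in that respect.

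Levels were compared between genes in TPM (transcript abundance on a common scale), which divides counts by the exon length deposited with each gene. The mitochondrial genome gave the most abundant subunit mRNAs. Its 13 genes had a median of 1567 TPM over the 12 libraries, 13.03 times the nuclear median of 120.3 TPM, and 7 of them lay above the most abundant nuclear subunit. The median of all tested genes was 24.3 TPM.

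**Figure D1:**
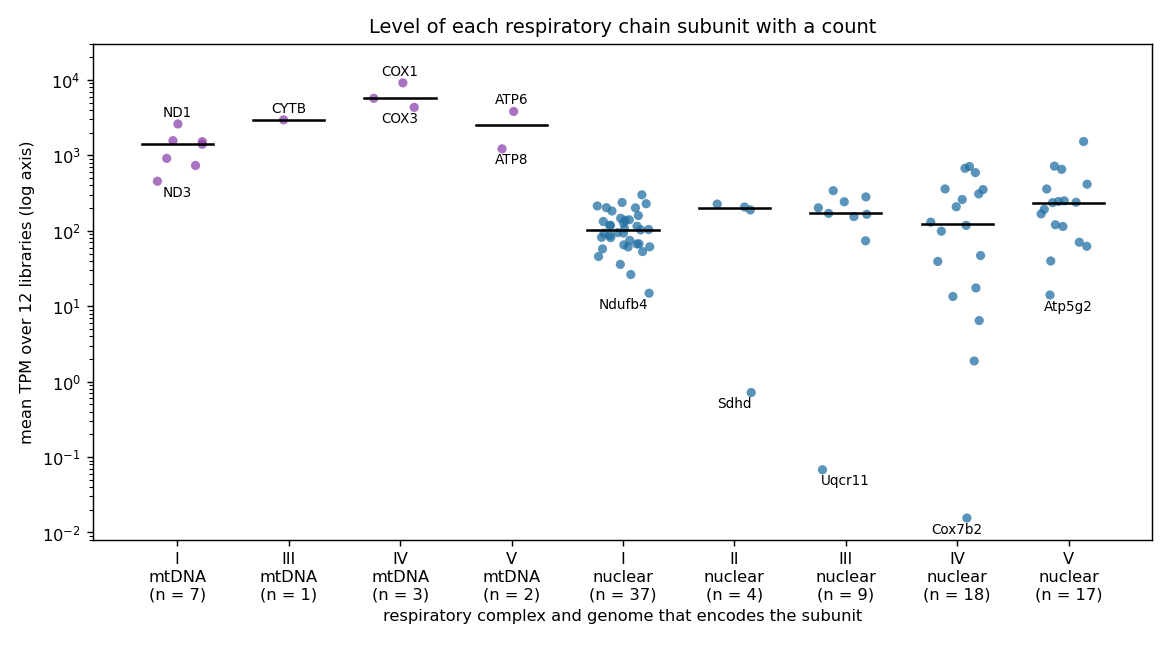
Mean level of each respiratory chain subunit over 12 libraries, in TPM on a log axis, by complex and by the genome that encodes it. Each point is 1 gene, bars are medians of the genes shown, the highest and lowest mitochondrial gene and the lowest nuclear gene of each column are named, and Cox8b and Cox8c, which had no count, are left out. The mitochondrial genes lie between 454 and 9155 TPM, and 64 of 87 nuclear genes lie between 50 and 500 TPM.

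Among the mitochondrial genes, those of the 3 core subunits of complex IV led, with COX1 at 9155 TPM, COX2 at 5710.0 TPM and COX3 at 4334 TPM. ATP6, the proton channel subunit of complex V, followed at 3829 TPM, and CYTB, the cytochrome b of complex III, at 2960.0 TPM. The 7 complex I genes ran from ND1 at 2612 TPM through ND5 (1567 TPM), ND2 (1521 TPM), ND4 (1402 TPM), ND4L (914 TPM) and ND6 (735 TPM) to ND3 at 454 TPM. ATP8 had 1222 TPM. The span from COX1 to ND3 was 20.1-fold although most of these genes are carried on one precursor. The values are per gene. Whether the overlapping ATP8 and ATP6, or ND4L and ND4, lie on separate mRNAs was not tested. Reads of mitochondrial genes made up 1.42, 1.39 and 1.33% of all counts in the WM-2474 240 h libraries, 1.28, 1.29 and 1.43% with DMSO at 240 h, 1.57, 1.54 and 1.54% with WM-2474 at 96 h, and 1.47, 1.46 and 1.56% with DMSO at 96 h. The 240 h shares were all below the 96 h shares, and the treatments overlapped at each time.

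The 37 nuclear complex I genes had a median of 103 TPM, and Ndufb4 was lowest at 14.9 TPM. Of the electron-transferring core subunits, Ndufv1, which binds NADH, had 133 TPM and Ndufs1, which carries iron-sulfur clusters, had 86.1 TPM. In complex II, the catalytic flavoprotein Sdha had 207 TPM, the iron-sulfur protein Sdhb 189 TPM and the membrane anchor Sdhc 226 TPM. In complex III, the accessory subunit Uqcrq was highest at 341 TPM, and the redox subunits Cyc1 and Uqcrfs1 had 202 and 154 TPM. In complex V, Atp5b and Atp5a1, which form the catalytic hexamer, had 1526 and 720.2 TPM.

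Several complex IV subunits have tissue isoforms, and the fibroblasts expressed mainly the widespread ones. Cox4i1 had 712 TPM against 17.5 TPM for Cox4i2, an isoform known from lung. Cox6a1 had 674 TPM against 1.88 TPM for the heart and muscle isoform Cox6a2. Cox6b1 had 352 TPM and its testis isoform Cox6b2 39.2 TPM. Cox8a had 591 TPM, while the muscle isoform Cox8b and the testis isoform Cox8c had no count in any library. Cox7b2, another testis isoform, had a count in 1 of the 12 libraries. Ndufa4, the complex IV subunit once assigned to complex I, had 308 TPM and its hypoxia-inducible relative Ndufa4l2 118 TPM in these cultures at low oxygen. The muscle isoform Cox7a1 had 6.45 TPM, Cox7a2 13.5 TPM and their relative Cox7a2l 260.0 TPM. Cox7a1 and Cox7a2 had 140 and 607 counts over all 12 libraries, so their levels rest on low counts. Among the 3 genes for the same c ring protein of complex V, Atp5g3 had 653 TPM, Atp5g1 62.4 TPM and Atp5g2 14.1 TPM. The share of 31-base words also found in other genes was 0% for Atp5g3, 57.8% for Atp5g1 and 48.1% for Atp5g2. How such reads were counted is unknown, so the order of these 3 levels is uncertain.

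Some low values concern subunits with no other isoform and are doubtful as levels. Sdhd, the second anchor of complex II, had 55 counts over all 12 libraries, and Uqcr11 of complex III had 2. Sdhd shares no 31-base word with another gene, Uqcr11 shares 19.6% of its words, and neither gene overlaps the exons of another, so the cause of the low counts was not found. Ndufb4 had 390 counts, while its near-identical copies Ndufb4c and Ndufb4b had 2137 and 1479. Ndufs5 had 768 counts and the pseudogene Ndufs5-ps 3554. Atp5l shares 85.7% of its 31-base words with other genes. On the opposite strand, Tssk6 covers 375 of the 1251 exon bases of Ndufa13 and Smim27 257 of the 659 of Ndufb6, and without the strand setting reads of the overlapping genes cannot be told apart.

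The nuclear subunits are transcribed from separate promoters, and the letters these have in common are described here. RefSeq promoter windows (GRCm38.p6, 250 bases before to 50 after the start) were found for 70 of the 88 nuclear genes. The letters GCGCATGC, the core of the NRF1 site, occurred on either strand in 10 of the 70 (14.3%), against 3.93% of 17491 protein-coding genes, and the full NRF1 palindrome, in which GC follows these letters, in 5 (7.14%) against 1.47%. CCGGAAG, the site of ETS factors such as GABP, occurred in 17 (24.3%) against 12.9%, and AAGATGGC, the site of YY1, in 10 (14.3%) against 3.57%. TATAAA occurred in 8 (11.4%) against 14.8%. At least 1 of the NRF1, ETS and YY1 matches was present for 31 of the 70 genes. That count was not made for all protein-coding genes, so it has no share to be set against. The motifs are letter matches and not measured binding, and the shares were not tested. The windows of Cox6a1 and Cox8a, complex IV subunits with the smallest treatment p-values at 240 h and at 96 h, and of Ndufs8, a core subunit of complex I called lower at 240 h than at 96 h with DMSO, are printed 5′ to 3′ on the gene's strand, with matches to any of these motifs, read on either strand, in capitals.
Cox6a1 (chr5:115348909-115349208, minus strand): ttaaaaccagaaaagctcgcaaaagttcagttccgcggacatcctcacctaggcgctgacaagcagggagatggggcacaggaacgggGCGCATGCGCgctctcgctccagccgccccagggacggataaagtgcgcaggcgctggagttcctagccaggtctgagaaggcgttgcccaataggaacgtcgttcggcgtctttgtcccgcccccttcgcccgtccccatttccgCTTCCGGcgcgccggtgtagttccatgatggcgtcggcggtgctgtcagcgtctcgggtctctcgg
Cox8a (chr19:7217567-7217866, minus strand): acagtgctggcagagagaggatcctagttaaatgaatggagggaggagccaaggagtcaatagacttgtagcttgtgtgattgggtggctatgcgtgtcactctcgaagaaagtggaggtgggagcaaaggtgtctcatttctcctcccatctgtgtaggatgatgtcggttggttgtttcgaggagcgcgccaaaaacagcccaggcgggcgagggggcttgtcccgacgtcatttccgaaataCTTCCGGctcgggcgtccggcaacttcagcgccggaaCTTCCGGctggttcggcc
Ndufs8 (chr19:3912725-3913024, minus strand): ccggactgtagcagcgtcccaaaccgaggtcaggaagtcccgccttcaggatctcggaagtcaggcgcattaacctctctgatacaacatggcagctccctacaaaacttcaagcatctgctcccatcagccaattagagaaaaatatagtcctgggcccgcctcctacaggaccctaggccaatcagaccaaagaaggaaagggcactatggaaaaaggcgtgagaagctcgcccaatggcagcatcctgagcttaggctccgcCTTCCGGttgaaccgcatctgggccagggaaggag
The Cox6a1 window holds the NRF1 palindrome and an ETS match, the Cox8a window only ETS matches, and the Ndufs8 window an ETS match. The window of Cox6b2 (chr7:4753045-4753344, minus strand), the member with the largest change over time, held none of the motifs searched.

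After 240 h, the respiratory chain showed small differences between WM-2474 and DMSO, most of them towards higher levels with WM-2474, and none passed the test. In edgeR's quasi-likelihood test with Benjamini-Hochberg adjustment, 0 of 94 subunits were called at an adjusted p under 0.05, against 0.0296% of all 13499 genes. At an unadjusted p under 0.05 there were 27 subunits, 26 of them higher, against 8.14% of all genes in either direction and 4.77% higher. A log2 fold change above 0 was found for 74 of 94 subunits, against 50.6% of all genes. The median log2 fold change was 0.10 over the 81 nuclear and 0.11 over the 13 mitochondrial subunits, against 0.002 over all genes. Nuclear subunit genes are short, and the 58 of them under 1000 bases had a median of 0.13, while the 23 longer ones had -0.003. All tested genes under 1000 bases had a median of 0.07, with 18.3% at an unadjusted p under 0.05 and 64.9% above 0. For the 58 short nuclear subunits these shares were 29.3% and 89.7%. The part of gene length in the result was not tested. Without DMSO 240 h replicates 1 and 2, the unadjusted count was 13 of 95 subunits, against 4.20% of all genes, and the mitochondrial median was 0.02 and the nuclear median 0.08.

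By complex, the median log2 fold change at 240 h was 0.13 for the 37 nuclear complex I genes, of which 32 lay above 0 and which ranged from -0.17 to 0.44. The 30 accessory subunits of complex I had a median of 0.14 and its 7 nuclear core subunits 0.08. Complex IV had 0.13 with 13 of 16 genes above 0, complex V 0.04, complex III 0.02, and complex II, the entry point from the citric acid cycle, -0.04 with 3 of 3 genes below 0. These 3 are among the nuclear subunits of 1000 bases or more, of which 13 of 23 lay below 0. In summed levels, the nuclear complex I genes together had 4277 ± 113 TPM with WM-2474 and 3944 ± 28.02 TPM with DMSO at 240 h, and the nuclear complex II genes 588 ± 10.4 TPM with WM-2474 and 615 ± 2.44 TPM with DMSO (SD, n = 3 each). Libraries of the groups did not overlap for 24 subunits that were higher and 4 that were lower with WM-2474, against 7.58% and 6.72% of all genes.

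**Figure D2:**
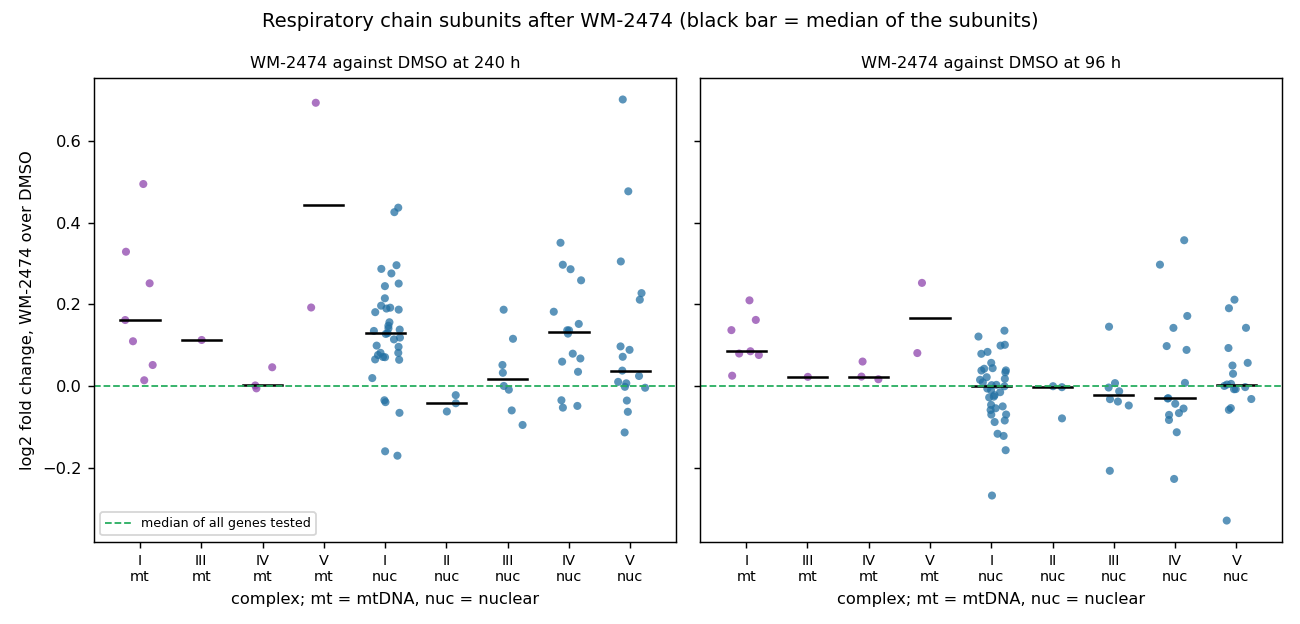
Log2 fold change of WM-2474 over DMSO for each of the 94 subunits tested, at 240 h (left) and 96 h (right), by complex and encoding genome. Black bars are the medians of the subunits and the dashed line is the median of all genes tested. At 240 h the nuclear complex I and IV genes have medians of 0.13 and 0.13, and at 96 h they have 0.0004 and -0.03.

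Cox6a1, an accessory subunit of complex IV, had the smallest p at 240 h, with 171, 151 and 150.4 CPM in WM-2474 libraries and 116, 135 and 132 CPM in DMSO libraries. All 3 WM-2474 values lay above all DMSO values, and the log2 fold change was 0.30 ± 0.06 (± SE here and below, adjusted p = 0.224, edgeR). Atp5k, a membrane subunit of complex V found in ATP synthase dimers, had 11.6, 10.3 and 8.21 CPM with WM-2474 and 6.94, 5.71 and 6.10 CPM with DMSO. Its log2 fold change was 0.70 ± 0.17 (adjusted p = 0.334, edgeR), on low counts. Ndufa3, an accessory subunit of the membrane arm of complex I, had 18.2, 20.1 and 17.8 CPM with WM-2474 and 13.7, 16.03 and 13.1 CPM with DMSO, a log2 fold change of 0.43 ± 0.11 (adjusted p = 0.362, edgeR). The groups did not overlap for these genes. DESeq2 called Cox6a1 (adjusted p = 0.0306) and no other subunit, with 0.0815% of all genes called, and limma-voom called none, with 0.0148%. Without DMSO 240 h replicates 1 and 2 the log2 fold changes were 0.25 for Cox6a1, 0.72 for Atp5k and 0.52 for Ndufa3, each with an adjusted p of 0.994.

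Among the mitochondrial genes, the differences at 240 h ran from -0.005 to 0.69 on the log2 scale, and 12 of 13 lay above 0. ATP6 had 1058, 1054 and 1026 CPM with WM-2474 and 873, 873 and 997 CPM with DMSO, and ND4L had 115, 128 and 105 CPM with WM-2474 and 96.1, 91.96 and 103 CPM with DMSO. Their log2 fold changes were 0.19 ± 0.05 and 0.25 ± 0.07 (adjusted p = 0.372 and 0.387, edgeR), without overlap of the groups. ND6 and ATP8 had larger differences with wider errors, 0.49 ± 0.13 and 0.69 ± 0.20 (adjusted p = 0.462 and 0.480, edgeR). ND6 is the gene read from the other strand, and it shares 14 bases with ND5. Without the strand setting, reads of ND6 cannot be told from those of the opposite strand, which limits its values. COX1, COX2 and COX3 lay close to 0, at 0.002 ± 0.05, -0.005 ± 0.05 and 0.05 ± 0.05. In ND6, DMSO replicates 1 and 2 had 113 and 108 CPM and replicate 3 had 149 CPM, against 192, 171 and 168 CPM with WM-2474. Leaving out DMSO 240 h replicate 3, which leaves the DMSO libraries with Xist and B lineage RNA, gave calls for ND6 (log2 fold change 0.68, adjusted p = 0.00270) and ATP6 (0.26, adjusted p = 0.0456) in edgeR. Without replicates 1 and 2, the log2 fold changes were 0.25 for ND6, 0.07 for ATP6, 0.18 for ND4L and 0.66 for ATP8, each with an adjusted p of 0.994 (edgeR), and COX1 had -0.11.

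**Figure D3:**
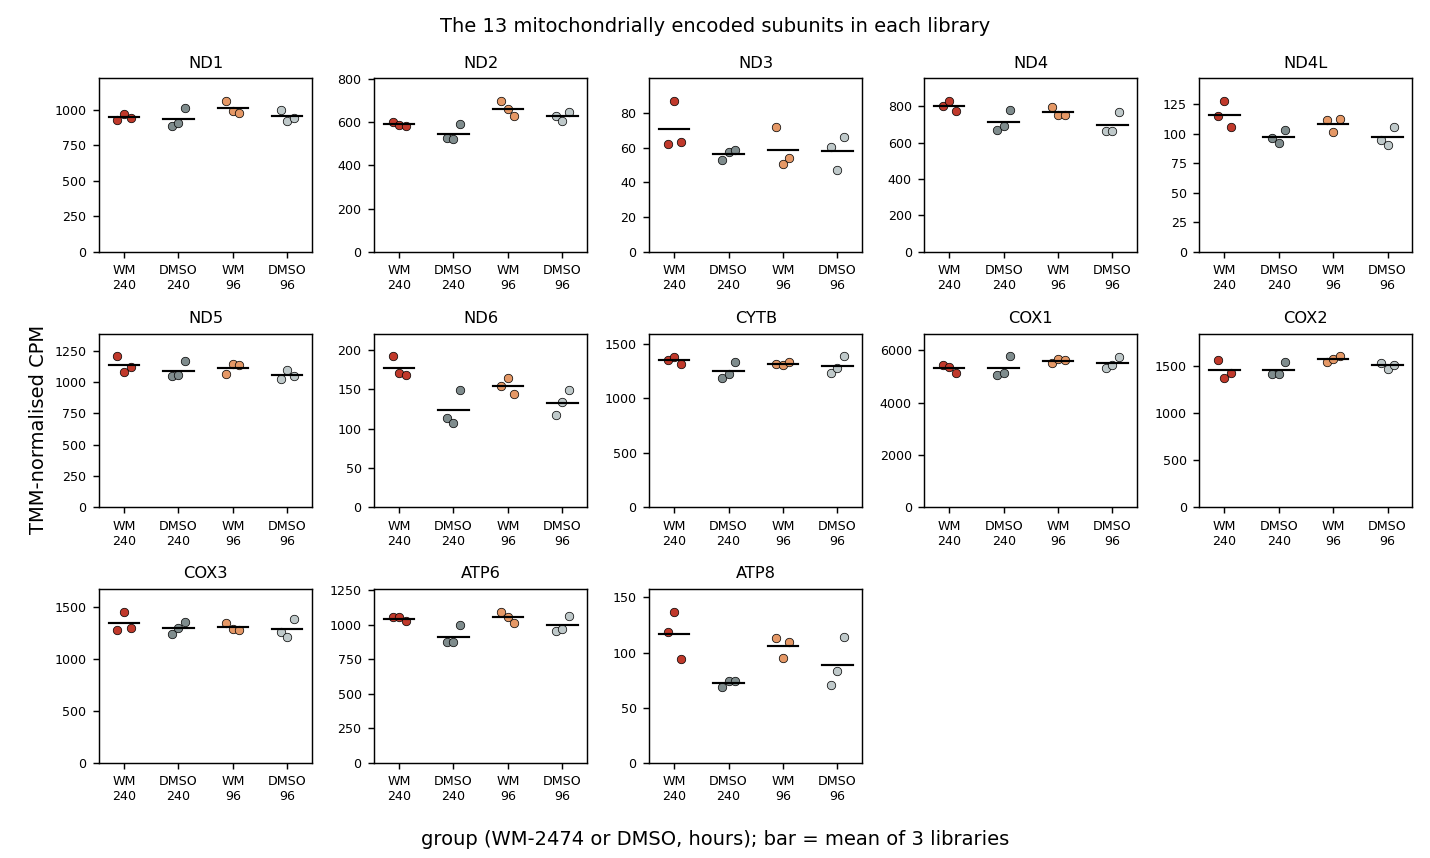
TMM-normalised CPM of the 13 mitochondrially encoded subunits in each library, by group, with bars at the mean of 3 libraries and axes starting at 0. COX1, COX2 and COX3 overlap between WM-2474 and DMSO at 240 h, and ATP6, ATP8, ND3, ND4L and ND6 do not.

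The members with the smallest p among those lower with WM-2474 at 240 h were long genes of 1801 to 2927 bases. Ndufs1 had 88.2, 98.3 and 95.3 CPM with WM-2474 and 109, 107 and 100.5 CPM with DMSO, a log2 fold change of -0.16 ± 0.06 (adjusted p = 0.489, edgeR). Atp5c1, the rotating shaft of complex V, and Uqcrc2, a core protein of complex III, had -0.11 ± 0.06 and -0.09 ± 0.06, also without a call.

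After 96 h, no subunit passed the test between WM-2474 and DMSO. Of 94, 0 were called by edgeR, DESeq2 or limma-voom, where 0.0% of all genes were called, and 4 had an unadjusted p under 0.05, against 2.10% of all genes. The replicate numbers may pair the 96 h libraries. With the replicate number as a block, 14 of 93 subunits had an unadjusted p under 0.05, 10 of them higher, and still 0 were called. Over all genes, 6.32% had such a p in either direction and 3.44% were higher. The median log2 fold change was -0.002 over nuclear subunits and 0.08 over mitochondrial ones, against 0.0001 over all genes. Above 0 lay 39 of 81 nuclear and 13 of 13 mitochondrial subunits, against 50.1% of all genes. Cox8a had 132, 125 and 129.8 CPM with WM-2474 and 115, 119 and 117 CPM with DMSO. Its groups did not overlap, and the log2 fold change was 0.14 ± 0.05 (adjusted p = 1.00, edgeR). ND4L and ND4 had 0.16 ± 0.07 and 0.14 ± 0.06, with overlapping groups. Within same-numbered libraries, ND4L was higher with WM-2474 in 3 of 3 pairs, and with the block it had the smallest p of the subunits (log2 fold change 0.17, adjusted p = 0.143, edgeR). On the lower side, Atp5l had -0.33 ± 0.14, Uqcrb -0.21 ± 0.11 and Ndufs5 -0.27 ± 0.16, and all 3 overlapped between the groups, while Uqcrb and Ndufs5 were lower in 3 of 3 pairs.

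Over both times together, 0 of 94 subunits were called by edgeR, DESeq2 or limma-voom, where edgeR called 0.0148% of all genes, and 19 had an unadjusted p under 0.05, against 5.65% of all genes. ND4L had a log2 fold change of 0.21 ± 0.05 and Cox8a of 0.14 ± 0.03 (adjusted p = 0.637 for both, edgeR). Each of the 6 WM-2474 libraries had more Cox8a than any DMSO library of the same time. At 240 h it had 134, 127 and 132 CPM with WM-2474 and 119, 114 and 124 CPM with DMSO. Atp5k had 0.45 ± 0.12 (adjusted p = 0.676, edgeR). Ndufs1 had -0.11 ± 0.04, Atp5c1 -0.08 ± 0.04 and Ndufa8, an accessory subunit of complex I, -0.14 ± 0.08.

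The difference of the WM-2474 effect between 240 h and 96 h was called for 0 of 94 subunits by edgeR, DESeq2 or limma-voom (0.0% of all genes), with 9 at an unadjusted p under 0.05, against 4.63% of all genes. Cox6a1 had the smallest p. At 96 h it had 125, 134 and 132 CPM with WM-2474 and 125, 146 and 143 CPM with DMSO, which overlap, and its difference of effects was 0.38 ± 0.09 on the log2 scale (adjusted p = 0.977, edgeR). Ndufb6 and Ndufc2, both in the membrane arm of complex I, had 0.39 ± 0.12 and 0.29 ± 0.10. The smallest p-values on the lower side belonged to Ndufs1 (-0.09 ± 0.08), ND1 (-0.07 ± 0.07) and COX2 (-0.07 ± 0.07). The 240 h and 96 h treatment comparisons share no library, and their log2 fold changes had a correlation of 0.39 over the 94 subunits and 0.06 over all genes, given as a description across genes.

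**Figure D4:**
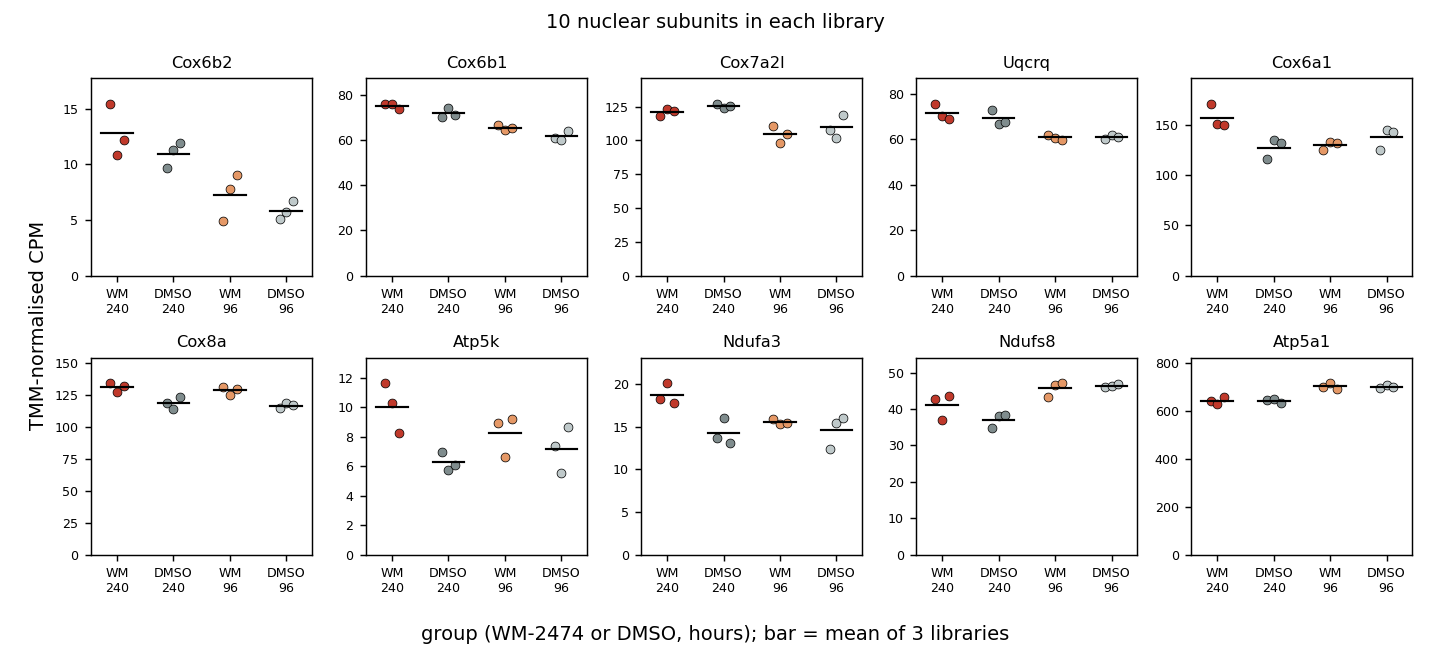
TMM-normalised CPM of 10 nuclear subunits in each library, by group, with bars at the mean of 3 libraries and axes starting at 0. Cox6b2, Cox6b1, Cox7a2l and Uqcrq are higher at 240 h than at 96 h with either treatment, Atp5a1 is lower, and Cox6a1 is highest with WM-2474 at 240 h.

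Over time in culture, a minority of the subunits changed with TMM factors, led by a rise of Cox6b2, Cox6b1, Cox7a2l and Uqcrq and a fall of ND2 and Atp5a1 in both treatments. With WM-2474, 12 of 94 subunits were called between 240 h and 96 h, 10 higher and 2 lower, where 30.7% of all genes were called (15.9% higher and 14.8% lower). With DMSO, 10 of 94 were called, 4 higher and 6 lower, where 34.8% of all genes were called (17.5% higher and 17.3% lower). The log2 fold changes of the subunits had an SD of 0.17 with WM-2474 and 0.18 with DMSO, against 0.44 and 0.45 over all genes. Of 94 subunits, 92 lay within 0.5 of 0 in both comparisons, against 80.5% of all genes. These differences from all genes were not tested. The median log2 fold change of nuclear subunits under 1000 bases was 0.12 with WM-2474 and -0.04 with DMSO, and all tested genes of that length had 0.05 and -0.03. The time comparisons share no library, and 6 subunits were called in both, in the same direction, of 16 called in either. Over all tested genes 23.8% were called in both in the same direction, which is 57.2% of those called in either. Across the 94 subunits the log2 fold changes of the time comparisons had a correlation of 0.61, and across all genes of 0.85. When each of the 6 libraries compared was left out in turn, the calls of Cox6b2, Cox6b1, Cox6a1, Cox7a2l, Ndufa13 and Uqcrq with WM-2474 and of Cox6b2, Cox6b1, Ndufs8, Ndufc2 and ND2 with DMSO remained in every fit. The shift of the 240 h libraries relative to the 96 h libraries depends on scaling. When TMM factors were dropped and library totals used alone, the median of all genes moved to -0.14 with WM-2474 and -0.13 with DMSO. Subunits called higher and lower were then 2 and 25 with WM-2474 and 1 and 34 with DMSO, while 8.13% and 32.5% of all genes were called with WM-2474 and 8.82% and 32.5% with DMSO. The nuclear median with WM-2474 was 0.06 with TMM factors and -0.07 with library totals, so its sign flips, while with DMSO it was -0.03 and -0.15. With library totals the calls of Cox6b2, ND2 and Atp5a1 remained in both treatments, those of Atp5md with WM-2474, and those of Ndufs8, Ndufv3, Ndufc2 and Ndufb8 with DMSO. The calls of Cox6b1, Cox7a2l and Uqcrq were lost in both treatments, and those of Cox6a1, Cox4i1, Ndufa13, Ndufb6 and Atp5l with WM-2474.

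The largest change was that of Cox6b2. It had 15.4, 10.8 and 12.1 CPM at 240 h and 4.92, 7.81 and 9.05 CPM at 96 h with WM-2474, and 9.63, 11.3 and 11.9 CPM at 240 h and 5.08, 5.71 and 6.73 CPM at 96 h with DMSO. The groups did not overlap in either treatment, and it rose by 0.83 ± 0.18 (adjusted p = 0.00144) and 0.94 ± 0.18 (adjusted p = 0.000481) on the log2 scale in edgeR, also with library totals. Its partner isoform Cox6b1 rose less, by 0.20 ± 0.05 with WM-2474 and 0.22 ± 0.05 with DMSO, and with library totals it had 0.06 and 0.10 without a call. Of the summed TPM of Cox6b1 and Cox6b2, the Cox6b2 share was 12.4 ± 1.95% at 240 h and 8.45 ± 2.37% at 96 h with WM-2474, and 11.3 ± 0.958% at 240 h and 7.32 ± 0.783% at 96 h with DMSO (SD, n = 3 each).

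Complex IV held 5 of the 10 rises with WM-2474, which is 5 of its 16 tested nuclear subunits, where 15.9% of all genes were called higher. With TMM factors all 16 had a log2 fold change above 0, against 49.3% of all genes, with a median of 0.19. With DMSO the median was 0.03 and 10 of 16 lay above 0, against 48.9% of all genes. These values depend on the scaling. With library totals and WM-2474, Cox5a was called lower (-0.13), only Cox6b2 of the 5 rises kept its call, and Cox6a1, Cox6b1, Cox7a2l and Cox4i1 lost theirs. Cox7a2l had 118, 123 and 122 CPM at 240 h and 110.4, 98.3 and 105 CPM at 96 h with WM-2474, and 127, 124 and 125 CPM at 240 h and 108, 102 and 119 CPM at 96 h with DMSO. It rose by 0.21 ± 0.06 and 0.19 ± 0.06, a change whose size was about the same in both treatments and which was not called with library totals (0.08 and 0.07). Cox6a1 rose with WM-2474 by 0.27 ± 0.06 (adjusted p = 0.00188, edgeR) and had -0.10 ± 0.06 with DMSO, without a call, and with library totals it had 0.14 without a call with WM-2474 and was called lower with DMSO (-0.23). Cox4i1, the isoform through which ATP is known to inhibit the enzyme, rose with WM-2474 by 0.18 ± 0.05 and had 0.04 ± 0.05 with DMSO. The summed striated muscle markers and the summed fibroblast markers were also higher in all 240 h libraries than in all 96 h libraries. The adipocyte and myeloid markers were lower in all 240 h libraries (40.3 to 50.4 and 6.52 to 9.91 CPM) than in all 96 h libraries (63.5 to 78.9 and 11.5 to 13.6 CPM). Single markers did not all follow these sums. The levels of the fibroblast markers Dcn and Lum and of the myeloid marker Csf1r overlapped between the times. The part of these 4 marker lists in the changes of the subunits was not tested.

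In complex III, Uqcrq, an accessory subunit, rose in both treatments with TMM factors. It had 75.4, 70.00 and 69.04 CPM at 240 h and 62.04, 60.6 and 59.6 CPM at 96 h with WM-2474, and 72.9, 66.8 and 67.6 CPM at 240 h and 60.03, 61.8 and 60.97 CPM at 96 h with DMSO, with log2 fold changes of 0.23 ± 0.06 and 0.18 ± 0.06 and no overlap of the groups. With library totals it had 0.10 and 0.06, without a call. With TMM factors no other complex III subunit and no complex II subunit was called in either comparison. With library totals, Sdha, Cyc1, Uqcrc1 and Uqcrfs1 were called lower in both treatments and Sdhb with DMSO, with log2 fold changes from -0.20 for Sdha to -0.13 for Uqcrc1, both with WM-2474.

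In complex I, 2 of 37 nuclear genes were called higher with WM-2474, where 15.9% of all genes were called higher, and 4 of 37 lower with DMSO, where 17.3% were called lower, and no gene in both. With WM-2474, Ndufa13 (also known as Grim19) rose by 0.26 ± 0.07 and Ndufb6 by 0.23 ± 0.09 (adjusted p = 0.0442, edgeR), Ndufb6 with overlapping groups and no call in DESeq2 or limma-voom. With DMSO, Ndufs8, an iron-sulfur core subunit, had 34.7, 38.03 and 38.3 CPM at 240 h and 45.9, 46.4 and 46.8 CPM at 96 h, and it fell by 0.31 ± 0.07 on the log2 scale (adjusted p = 0.000953, edgeR). With WM-2474 it had 42.6, 36.9 and 43.6 CPM at 240 h and 43.2, 46.6 and 47.04 CPM at 96 h, a log2 fold change of -0.16 ± 0.07 without a call. Ndufv3, Ndufc2 and Ndufb8, accessory subunits, had log2 fold changes of -0.28 ± 0.07, -0.26 ± 0.07 and -0.23 ± 0.07 with DMSO, all called, and -0.05 ± 0.07, 0.03 ± 0.07 and -0.04 ± 0.07 with WM-2474. The difference between treatments was not called for any of these genes. Without DMSO 240 h replicates 1 and 2, the log2 fold changes with DMSO were -0.27 for Ndufs8, -0.30 for Ndufb8, 0.21 for Cox6b1 and 1.03 for Cox6b2. The calls of Ndufv3, Ndufc2, ND2, Atp5a1, Cox7a2l and Uqcrq were not kept. That fit has a single DMSO 240 h library, and calls fell over all genes as well.

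ND2, a membrane subunit of complex I, was the called mitochondrial gene. It had 599, 588 and 584 CPM at 240 h and 698, 659.7 and 631 CPM at 96 h with WM-2474, and 525, 523 and 590.1 CPM at 240 h and 629, 604 and 647 CPM at 96 h with DMSO. All 240 h libraries lay below all 96 h libraries of the same treatment, with log2 fold changes of -0.17 ± 0.05 and -0.20 ± 0.05. Without DMSO 240 h replicates 1 and 2, which had the lowest ND2 values, the DMSO change was -0.08 (adjusted p = 0.418, edgeR), and the call was lost. The other 12 mitochondrial genes were not called with TMM factors, and the values farthest from 0 were those of ND3 with WM-2474 (0.27 ± 0.19) and ATP8 with DMSO (-0.29 ± 0.20). The mitochondrial median with DMSO was -0.05, and 0.07 without DMSO 240 h replicates 1 and 2. With library totals, ATP6, COX1, COX2 and ND1 were also called lower in both treatments and CYTB with DMSO.

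In complex V, Atp5a1 had 642, 630.4 and 658 CPM at 240 h and 701, 716 and 694 CPM at 96 h with WM-2474, and 645, 652 and 635 CPM at 240 h and 696, 707 and 699 CPM at 96 h with DMSO. Its replicates were close, and it fell by 0.13 ± 0.04 and 0.12 ± 0.04 on the log2 scale. Atp5l and Atp5md, small membrane subunits, rose with WM-2474 by 0.47 ± 0.14 and 0.44 ± 0.11 and had 0.05 ± 0.13 and 0.14 ± 0.11 with DMSO, not called. Atp5l had 8.46, 9.22 and 8.67 CPM at 240 h and 5.72, 5.97 and 7.51 CPM at 96 h with WM-2474, and its low counts and shared sequence limit this value.

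**Figure D5:**
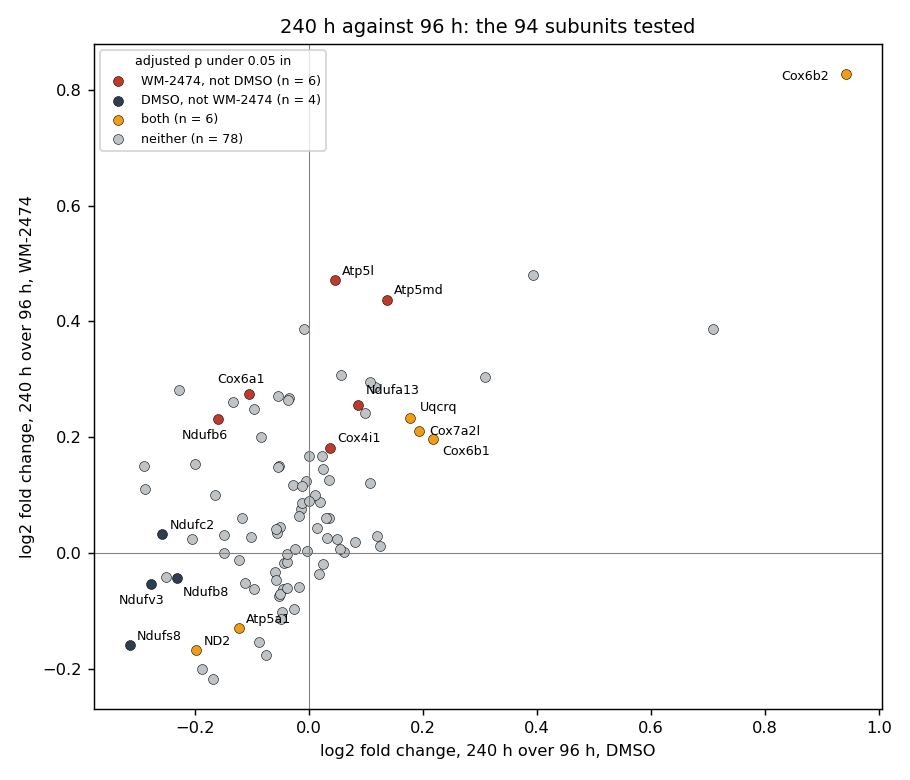
Log2 fold change of 240 h over 96 h for the 94 subunits tested, with WM-2474 on the y axis and with DMSO on the x axis, coloured by the treatment in which the adjusted p was under 0.05. Called subunits are named, most points lie within 0.5 of 0 on both axes, and Cox6b2 lies apart at 0.83 with WM-2474 and 0.94 with DMSO.

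Genes that build, feed and regulate the chain were counted in the same fits, with TMM factors alone. None was called by treatment at either time. Of 47 assembly factors tested, 4 rose and 2 fell with time in WM-2474 and 6 rose and 2 fell in DMSO. Tmem70, which assembles ATP synthase, rose by 0.46 ± 0.09 with WM-2474 and 0.45 ± 0.08 with DMSO, and Ttc19, a complex III factor, rose by 0.23 ± 0.07 and 0.44 ± 0.07. Of 31 genes of mitochondrial transcription, replication and RNA handling, 2 rose and 2 fell in each treatment. Tfam, which packages and transcribes mitochondrial DNA, fell by 0.26 ± 0.09 with WM-2474 (adjusted p = 0.0408, edgeR). Mterf4, which targets an rRNA methyltransferase to the mitochondrial ribosome, fell by 0.64 ± 0.12 with WM-2474 and 0.46 ± 0.12 with DMSO. Grsf1, an RNA granule protein, rose by 0.14 ± 0.05 and 0.22 ± 0.05.

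Of 16 nuclear regulators, 2 rose and 1 fell with WM-2474 and 3 rose and 2 fell with DMSO. Esrra, a nuclear receptor for oxidative metabolism genes, rose by 0.44 ± 0.07 and 0.25 ± 0.07, and the PGC-1 family coactivator Pprc1 by 0.17 ± 0.05 and 0.29 ± 0.05. Of 22 genes of the citric acid cycle and pyruvate dehydrogenase, 1 rose and 3 fell with WM-2474 and 2 rose and 4 fell with DMSO. Idh3a, a catalytic subunit of isocitrate dehydrogenase, rose by 0.28 ± 0.06 and 0.29 ± 0.06, and Pdk4, a kinase that inactivates pyruvate dehydrogenase, fell by 0.69 ± 0.16 and 0.57 ± 0.16. Of 77 mitochondrial ribosomal proteins, 1 rose and 4 fell with WM-2474 and 1 rose and 6 fell with DMSO, and Mrps6 fell by 0.30 ± 0.09 and 0.37 ± 0.08. Of 16 electron carriers and partners, 0 rose and 2 fell with WM-2474 and 1 rose and 2 fell with DMSO. Sqor, which passes electrons from sulfide to ubiquinone, fell with WM-2474 by 0.66 ± 0.16, and Ucp2, a mitochondrial carrier, rose with DMSO by 0.93 ± 0.15. In each of these 6 lists the share of called genes was below the share over all genes, a difference that was not tested. Of the 20 striated muscle markers 5 could be tested, and Acta1 and Tnnt2 rose while Actc1 fell in both treatments, by 1.13 ± 0.13, 1.51 ± 0.21 and 1.85 ± 0.53 with WM-2474.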

How the data were processed

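Counts per gene were deposited as 1 table of whole numbers with gene lengths, made by the authors with featureCounts on mm10, per the submitters' processing notes; libraries were TruSeq Stranded mRNA, per the labels' protocols. The aligner, annotation, strand setting and treatment of reads with several matches are not given in the sources used here. The 874 of 27179 entries without a gene identifier held 0.547 to 0.648% of counts and were left out. Genes passing edgeR's filterByExpr over all 12 libraries were fitted with TMM factors and edgeR 4.0.16's quasi-likelihood test (R 4.3.3), with 1 mean per group, and p-values were adjusted by Benjamini-Hochberg over 13499 genes. CPM are TMM-normalised and TPM use the deposited lengths. DESeq2 1.42.0 and limma-voom (limma 3.58.1) were alternatives, with other scalings, filters, replicate blocks and left-out libraries. In simulated counts the test recovered 48% of genes changed by 0.3 and 90% of those changed by 1 on the log2 scale at 240 h between treatments, among 13376 genes. Every simulated gene had the same biological spread of 5.22% and no library stood apart, so recovery in the real data may be lower.

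The labels number the replicates. The 96 h groups deviated together by number (r = 0.30, 0.24 and 0.19 over genes), against -0.19 to -0.05 for different numbers. There the numbers may pair the libraries, which is read from the data, is not a stated design and was not tested. Members and pathway lists were chosen with earlier results of these data known. Genes named are the 13 mitochondrial genes, core subunits, isoforms, the highest and lowest gene of each complex (1 of them is not reported here), the called subunits (or the 3 with the smallest p in a direction without calls) and up to 2 genes per direction of each pathway list.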

Additional observations from a re-analysis of the deposited data

How the results depend on the processing

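The number of subunits called higher with WM-2474 at 240 h was 0 by edgeR, 1 by DESeq2, 4 without a filter on low counts (Atp5k, Cox6a1, ATP6 and ND4L) and 0 to 2 when each library was left out. All genes called higher were 0.0815% by DESeq2, 0.199% without the filter and 0.0 to 0.0512% with a library left out. Without that filter the count of subunits called higher was 1 for the average over both times (ND4L) and 1 for the difference between times (Cox6a1), where 0.0306% and 0.0102% of all genes were called higher, and leaving out each library gave 0 to 1 for the average, against up to 0.0293% of all genes. The cause was not tested. None was called at 96 h under any alternative tried.

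For time, library totals without TMM factors gave 2 subunits called higher and 25 lower with WM-2474, and 1 higher and 34 lower with DMSO. Leaving out each library gave 8 to 13 higher and 1 to 3 lower with WM-2474, and 3 to 5 higher and 4 to 10 lower with DMSO, where 12.8 to 15.8% and 10.9 to 13.7% of all genes were called with WM-2474 and 13.7 to 17.0% and 12.7 to 16.6% with DMSO. The fit without DMSO 240 h replicates 1 and 2 has a single DMSO 240 h library, which is assumed to vary like the other groups, and its calls are not counted here. Ndufb6, called with WM-2474, lost its call in DESeq2, in limma-voom, with only the libraries compared and in 5 of 6 fits that left out a library. Calls with WM-2474 were also lost without WM-2474 240 h replicate 2 (Atp5a1, Atp5l and Atp5md), WM-2474 96 h replicate 1 (Atp5l and ND2) and WM-2474 96 h replicate 2 (Atp5a1 and Cox4i1). With DMSO they were lost without DMSO 240 h replicate 1 (Uqcrq), DMSO 240 h replicate 3 (Atp5a1 and Ndufb8), DMSO 96 h replicate 2 (Atp5a1 and Cox7a2l) and DMSO 96 h replicate 3 (Ndufb8 and Ndufv3). The log2 ratio of summed TPM between 240 h and 96 h moved under RPKM with TMM-scaled library sizes to 0.062 for nuclear subunits with WM-2474 (-0.039 in TPM), to -0.0208 with DMSO (-0.096 in TPM) and to -0.0234 for mitochondrial subunits with WM-2474 (-0.124 in TPM).

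With the replicate block and only the libraries compared, 6 subunits were called higher with WM-2474 at 240 h (Atp5k, Cox6a1, ATP8, ATP6, ND3 and ND4L), 1 lower with time in WM-2474 and 10 lower with time in DMSO, against 0.618%, 13.5% and 18.8% of all genes. Correlations of same-numbered libraries were weaker in these comparisons than at 96 h and ran from -0.01 to 0.13. At 240 h they were 0.097, 0.114 and 0.040 between treatments, against -0.114 to 0.023 for libraries of different numbers. Over time they were 0.056, 0.095 and 0.132 with DMSO, against -0.080 to -0.016. With WM-2474 over time they were -0.008, 0.080 and 0.066, against -0.082 to 0.011. Whether the numbers pair these libraries was not tested. At 96 h the block changed no call of a subunit. The block with only the libraries compared was not run for the average and the difference, which use all 12 libraries.

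Depth limits the low members, such as Atp5l and Atp5k, more than the mitochondrial genes. A count of changed calls covered the called subunits of each comparison, or those with the smallest p in a direction without calls. Over pairs of such a gene and an alternative, 41 lost and 7 gained a call and none reversed. The fit with a single DMSO 240 h library is among these alternatives. Calls gained by other subunits are not counted, such as those of ATP6 and ND6 by treatment at 240 h and many with library totals over time.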
